A study of Mus musculus with 2 samples.

Results

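The JAK kinases and STAT factors were followed in mouse T cell blasts through every probe set that the platform annotation assigns to 1 of 9 gene symbols alone, which were Jak1, Jak2, Jak3, Stat2, Stat3, Stat4, Stat5a, Stat5b and Stat6. This gave 19 probe sets of the 45037 that are not manufacturer controls, 6 for the 3 kinases and 13 for the 6 factors. The study itself holds 1 group of 2 Affymetrix mouse 430 2.0 arrays, called set 1 and set 2 as in their titles. Both carry RNA of 5cc7 T cells, which carry a receptor for MCC, a moth cytochrome c peptide; they had been given that peptide in culture and were harvested as blasts after 5 days. No resting, untreated or earlier sample was analysed here, the sources used here do not give the strain and age of the mice, and nothing in the labels says that the arrays hold RNA of separate cultures. The SD between the arrays may therefore be technical, and no comparison between conditions was made.

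JAK kinases are tyrosine kinases that sit on the inner tails of cytokine receptors. When a cytokine joins the receptor chains, the kinases phosphorylate each other and the tails, STAT proteins dock there, become phosphorylated, pair up and enter the nucleus to bind DNA. In T cells this route carries the growth and survival signals of interleukins 2, 7 and 15 and the signals of interleukins 4, 6 and 12 that accompany helper cell differentiation. The activity of these proteins depends on phosphorylation, which arrays of RNA do not measure.

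All 9 genes were above background on both arrays, 8 of them with a probe set at over 6 times the bound. Background was judged from probe sets of genes typical of the kidney, pancreas, eye and liver, whose 95th percentile of intensity, 54.92 for set 1 and 59.49 for set 2, served as the bound. A probe set was called only if both of its readings passed. This held for 18 of the 19 JAK and STAT probe sets, while it held for 37.2% of all probe sets. At least 1 probe set passed for 9 of 9 genes, where 46.5% of the 18193 named genes did. The median over the genes of the brightest probe set was 545 for the JAK and STAT genes and 53.9 for all named genes. Genes with several probe sets have more chances to pass, and probe sets differ in how strongly they bind their transcript, so readings of different genes are not an order of abundance. Probe sets of 2 off-tissue genes of a second list, picked with their values known, also read well over the bound. Mbp was at 493.5 ± 31.3 and Tg at 432 ± 18.7. Whether the cells express these 2 genes was not examined, and passing the bound does not by itself show that a gene is active. Values below are deposited linear intensities, with the mean ± SD of the 2 arrays (n = 2).

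**Figure D1:**
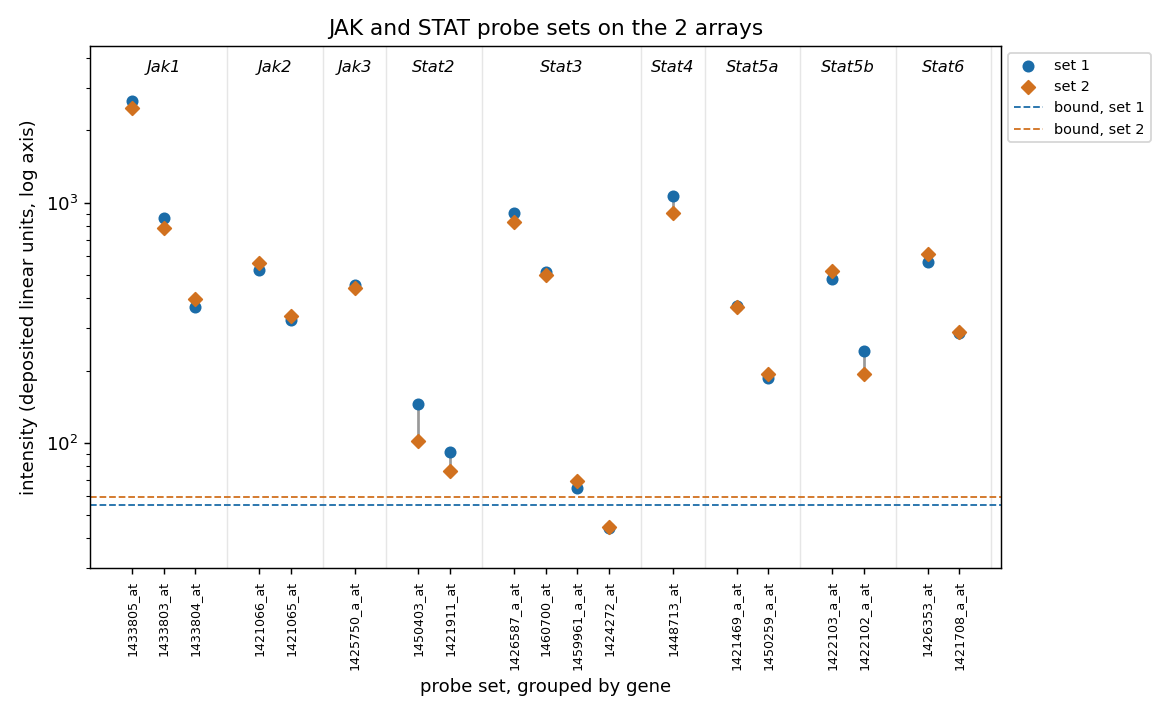
Intensity of each JAK and STAT probe set (deposited linear units, log axis) on set 1 (circles) and set 2 (diamonds), grouped by gene, with the background bound of each array as a dashed line. The 3 Jak1 probe sets span 382 to 2577, both Stat2 probe sets lie near the bounds, and 1 Stat3 probe set lies below them.

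Jak1, the kinase that interleukin 2, 4, 6 and 7 receptors and both interferon receptor types share, gave a bright probe set and weaker ones. Probe set 1433805_at read 2663.3 on set 1 and 2489.9 on set 2 (2577 ± 123). Probe set 1433803_at read 867.5 and 783.3 (825.4 ± 59.5), and 1433804_at read 366.7 and 396.8 (382 ± 21.3). All 3 exceeded the bound on both arrays by several times. The brightest was 6.75 times the dimmest by mean intensity, far more than the arrays differed for any of them.

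Jak3, which pairs with the receptor chain shared by interleukins 2, 4, 7, 9, 15 and 21, had 1 probe set annotated to it alone. It read 454 on set 1 and 439.8 on set 2 (447 ± 10.04), so the arrays were close to each other. Jak2, the kinase of the interleukin 12 receptor, of the second interferon gamma receptor chain and of hormone receptors such as that for erythropoietin, had 2 probe sets. Probe set 1421066_at read 527.2 and 562.1 (545 ± 24.7) and 1421065_at read 323.6 and 336 (330 ± 8.77). Both were slightly higher on set 2, and their readings did not overlap. All 6 kinase probe sets were above the bound on both arrays.

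Stat5a and Stat5b, which carry the signals of interleukins 2, 7 and 15, are encoded by neighbouring genes for closely similar proteins. In the RefSeq order of genes on GRCm38.p6, Stat5b, Stat5a and Stat3 follow each other on chromosome 11 with no other gene between them. Stat5a read 369.9 on set 1 and 368.2 on set 2 with 1421469_a_at (369 ± 1.202), and 185.5 and 194.3 with 1450259_a_at (189.9 ± 6.22). Stat5b read 480.5 and 519.5 with 1422103_a_at (500 ± 27.6), and 241.4 and 193.3 with 1422102_a_at (217 ± 34.0). Each gene thus had a brighter and a dimmer probe set, 1.94-fold apart for Stat5a and 2.30-fold apart for Stat5b. The dimmer Stat5b probe set was the less repeatable of the 4. Whether probes of one gene also bind the transcript of the other was not examined, so the readings of this pair cannot be assigned to 1 gene with certainty.

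Stat4, the factor activated by interleukin 12 in the Th1 response, had 1 probe set. It read 1072.1 on set 1 and 902.3 on set 2 (987 ± 120.1), higher on set 1. Stat6, which transmits interleukin 4 signals in the Th2 response, read 567.7 and 611.5 with 1426353_at (590 ± 31.0) and 285.9 and 289.1 with 1421708_a_at (287.5 ± 2.26). The 2 Stat6 probe sets were 2.05-fold apart, and each repeated closely between the arrays. The factors of both helper responses were therefore above the bound in the same RNA, and whether the same cells held both is not measured by bulk arrays. In such data, fewer cells expressing a gene and less RNA per cell cannot be told apart.

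Stat3, which responds to interleukins 6, 10, 21 and 27, showed the widest disagreement of the 7 genes with several probe sets. Probe set 1426587_a_at read 903.2 on set 1 and 828 on set 2 (866 ± 53.2), and 1460700_at read 515.9 and 498.3 (507 ± 12.4). Probe set 1459961_a_at read 64.6 and 69.4 (67.0 ± 3.39), just above the bounds. Probe set 1424272_at read 44.1 and 44.7 (44.4 ± 0.424), just below them. The brightest was 19.5 times the dimmest, and the 2 arrays gave nearly the same ratio, 20.5 on set 1 and 18.5 on set 2. Stat3 was thus plainly detected by 2 probe sets, and the other 2 read near background on both arrays.

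Stat2, which joins Irf9 and another STAT in the complex that answers type I interferon, read lowest against the background. Probe set 1450403_at read 145 on set 1 and 101.6 on set 2 (123 ± 30.7), and 1421911_at read 91.4 and 76.7 (84.0 ± 10.4). Its brighter probe set was 2.64 times the bound on set 1 and 1.71 times the bound on set 2. The kidney gene Kap, a member of the list that set the bound and chosen here after its value was seen, read 127.4 and 129.6 (128.5 ± 1.56). It was the highest of the 36 measured genes of that list, of which 2 were above the bound. Stat2 fell short of the bound on set 2 when the bound came from a second list of off-tissue genes, at 95.3 on set 1 and 105.2 on set 2, and on set 2 when the 99th percentile was used, at 103 and 119. The other 8 genes stayed above the bound under both.

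Promoter windows of the 9 genes were searched for the short sequences that STAT complexes are known to bind, to show which of these genes carry such letters themselves. The windows run from 250 bases before to 50 bases after an annotated start site, from RefSeq on GRCm38.p6, with 12 windows for the 9 genes. Searched on both strands were TTCNNNGAA, the core of the site of most STAT dimers, TTCNNNNGAA, the spacing favoured by STAT6, and GAAANNGAAA, the core of the element bound by the Stat2 complex with Irf9. The first reads the same on both strands, as does the second. TTCNNNGAA was in 0 of the 12 windows and in 8.3% of all 32851 windows. TTCNNNNGAA was in 1 of the 12 and in 6.95% of all, and GAAANNGAAA was in 2 of the 12 and in 3.44% of all. The matches lay in the Stat2 window, which held both of these, and in 1 of 2 Stat4 windows. A match is a description of letters, and no binding was measured here. The Stat2 window lies at chr10:128270248-128270547 (plus strand) and the Stat4 window at chr1:52007990-52008289 (plus strand), both printed 5′ to 3′ with the matches in capitals.
Stat2: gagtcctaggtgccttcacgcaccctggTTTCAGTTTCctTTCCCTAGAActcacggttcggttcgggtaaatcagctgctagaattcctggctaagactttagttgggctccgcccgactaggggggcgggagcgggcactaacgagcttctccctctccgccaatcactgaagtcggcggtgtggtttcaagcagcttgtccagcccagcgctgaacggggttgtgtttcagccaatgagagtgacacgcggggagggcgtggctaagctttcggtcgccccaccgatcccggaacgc
Stat4: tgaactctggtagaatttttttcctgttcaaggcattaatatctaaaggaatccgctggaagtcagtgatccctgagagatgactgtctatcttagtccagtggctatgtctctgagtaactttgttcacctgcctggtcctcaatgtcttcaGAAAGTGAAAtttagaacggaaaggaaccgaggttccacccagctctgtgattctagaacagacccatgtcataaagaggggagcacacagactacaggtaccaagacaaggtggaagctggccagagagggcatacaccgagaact
In the Stat2 window TTTCAGTTTC, a match on the opposite strand, is followed 2 bases later by TTCCCTAGAA. The Stat4 match is GAAAGTGAAA.

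Probe sets of the same JAK or STAT gene differed from each other, and their spread was set beside that of genes with as many probe sets. Only Jak1 had 3 and only Stat3 had 4, so no relation with that number can be read from these genes. Of the 7 genes with several probe sets, 6 had every one above the bound, the exception being Stat3, where 36.5% of the 5609 such genes above the bound did. Of genes with 2 probe sets, as 5 of the 7 have, 49.8% did. The median ratio of the brightest to the dimmest probe set was 1.94 for the 5 genes with 2 probe sets (range 1.47 to 2.30) and 2.80 for the 2555 genes above the bound with 2. For genes with 3 probe sets the median was 6.32, beside 6.75 for Jak1, and 52.0% of those 1574 genes had a narrower spread than Jak1. For genes with 4 it was 9.78, beside 19.5 for Stat3, and 68.8% of those 795 genes had a narrower spread than Stat3. None of these shares and ratios is matched on intensity. By the manufacturer's naming, the 8 JAK and STAT probe sets that end in _a_at are built to match several transcripts of 1 gene. The other 11 end in _at. None of them carries the endings _s_at or _x_at that mark probes shared with other genes or sequences.

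**Figure D2:**
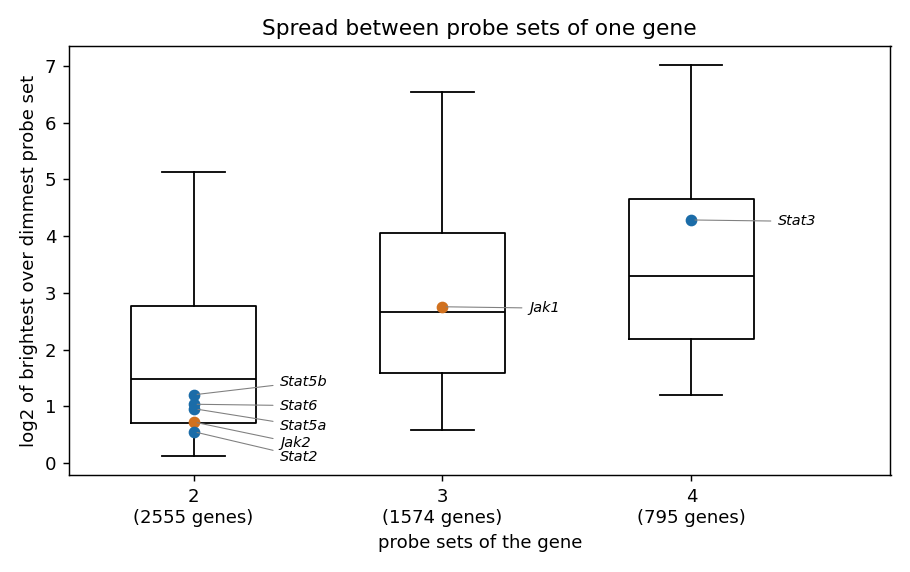
Log2 ratio of the brightest to the dimmest probe set of a gene, for genes above the bound with 2, 3 or 4 probe sets. Boxes show the middle 50% with the median and whiskers the 5th to 95th percentiles; coloured points are the JAK genes (orange) and STAT genes (blue), with Stat3 at 4.29 and the 5 genes with 2 probe sets all below the median of their class.

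Most JAK and STAT probe sets read nearly the same on both arrays. The log2 reading on set 1 was taken from that on set 2, and the median of 0.03 over all probe sets above the bound was then subtracted. Over the 18 JAK and STAT probe sets above the bound the SD of this difference was 0.18, and over all 16734 probe sets above the bound it was 0.24. These SDs are not matched on intensity. Over all probe sets above the bound the SD was 0.29 for means from 64 to 128 and 0.17 for means from 512 to 1024. Of the 18, 7 were higher on set 2 and 11 higher on set 1. Within 1.2-fold lay 14 of the 18 (77.8%) and 78.1% of all above the bound. More than 2-fold apart were 0 of the 18 and 0.185% of all. These counts describe 2 arrays of 1 group, and no test was made.

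The 4 outside were both Stat2 probe sets, the dimmer Stat5b probe set and Stat4, and all 4 were higher on set 1. Stat2 with 1450403_at differed by −0.54, a reading 1.45-fold higher on set 1. Among the 5701 probe sets above the bound with a mean from 64 to 128, 6.42% were as far apart. The other Stat2 probe set, 1421911_at, differed by −0.28. Stat5b with 1422102_a_at differed by −0.35, where the SD for means from 128 to 256 was 0.24, while its other probe set differed by 0.08 the other way. Stat4 differed by −0.28, where the SD for means from 512 to 1024 was 0.17. The remaining differences of probe sets above the bound ran from −0.175 to 0.09.

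**Figure D3:**
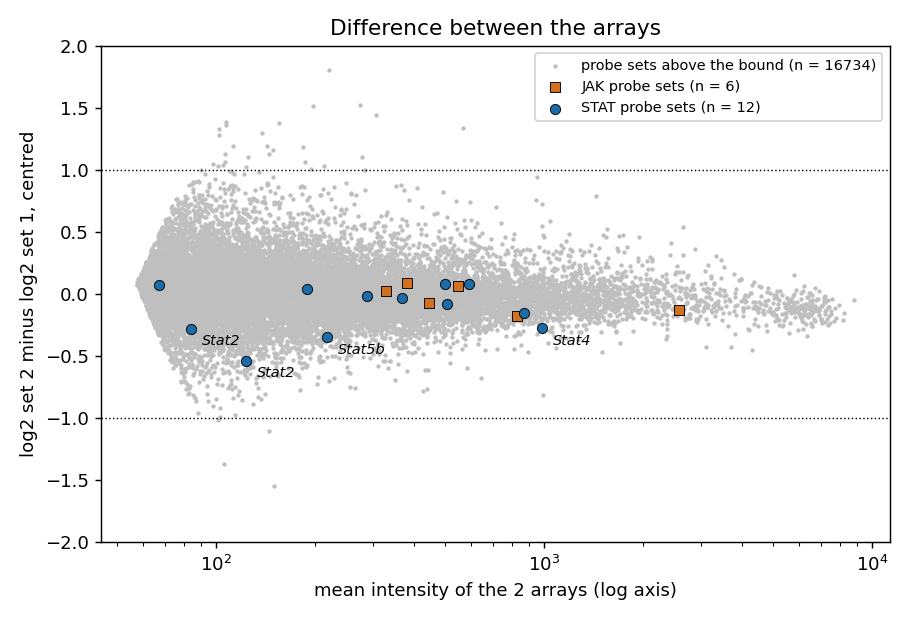
Centred log2 difference between the arrays (set 2 minus set 1) against mean intensity (log axis) for the 16734 probe sets above the bound (grey), with the 6 JAK (squares) and 12 STAT (circles) probe sets; dotted lines mark 2-fold. The labelled points are the 4 lowest, with Stat2 at −0.54 the farthest from 0.

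The lymphocyte cytokine receptors on which these kinases sit were mostly above the bound. Of 7 measured chains of the common gamma chain family 6 were above it. The common gamma chain gene itself, Il2rg, was listed but had no probe set annotated to it alone, so it was not read. For this list and the receptor, ligand and marker lists below, the share to set beside each count is the 46.5% of all named genes. Il7r, the interleukin 7 receptor, read 2953 on set 1 and 2835 on set 2 (2894 ± 83.4), and Il2rb, the signalling chain for interleukins 2 and 15, read 782.9 and 818.6 (801 ± 25.2). Il2ra, the high-affinity interleukin 2 chain, read 412.2 and 461.9 (437 ± 35.1). The interleukin 4 chain Il4ra, the interleukin 21 receptor Il21r and Il15ra were at 249.75 ± 19.4, 179.85 ± 7.71 and 86.0 ± 5.87. The exception was Il9r, at 3.2 and 5.

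The receptors that lead to Stat4 and Stat2 gave 5 of 6 measured chains above the bound. Il12rb1, the interleukin 12 chain that also serves interleukin 23, read 312.5 and 256.7 (285 ± 39.5), and Il12rb2, the chain that recruits Stat4, read 291.1 and 243.5 (267 ± 33.7). The type I interferon chains Ifnar1 and Ifnar2 were at 398 ± 32.5 and 220 ± 21.6, and Ifngr1 at 836 ± 83.2. Ifngr2, the chain that carries Jak2, was below the bound on both arrays at 38.2 and 46.6.

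Of the chains that lead mainly to Stat3, 5 of 7 were above the bound. Il10rb was at 326 ± 36.6, the interleukin 27 chain Il27ra at 249 ± 35.8, and Il6st, the gp130 chain shared by the interleukin 6 family, at 181 ± 24.0. Il10ra and Il6ra were at 129.8 ± 2.83 and 117 ± 3.25. Lifr and Osmr, gp130 partners for leukaemia inhibitory factor and oncostatin M, were below it at 14.1 ± 6.65 and 26.8 ± 0.990.

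Receptors that signal through Jak2 in blood precursors and other organs were mostly not above the bound, with 1 of 8 measured. The erythropoietin receptor Epor read 67.2 and 63.6 (65.4 ± 2.55), close to the bounds. Csf2ra, Csf2rb and Csf3r, receptors of myeloid growth factors, were at 32.9 ± 5.30, 40.1 ± 5.59 and 22.6 ± 21.1. The growth hormone receptor Ghr, the leptin receptor Lepr, and Il3ra and Il5ra, chains for interleukins 3 and 5, were at 27.8 ± 5.30, 29.9 ± 2.40, 28.1 ± 16.4 and 24.9 ± 5.80. The count was 0 with the 99th percentile or the second off-tissue list as the bound.

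The cytokines that act through JAKs were hardly detected themselves. Of 19 measured ligand genes 1 was above the bound, oncostatin M (Osm), which read 245.6 on set 1 and 259.7 on set 2 (253 ± 9.97). Csf2, Ifnb1 and Ifng, encoding a myeloid growth factor and the type I and type II interferons, were at 6.8 ± 0.707, 34.7 ± 5.80 and 25.6 ± 2.55. Cytokine proteins and their secretion were not measured. The count was 3 when the median of all probe sets served as the bound.

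Of the inhibitors of the pathway 16 of 17 were above the bound, beside 46.5% of all named genes. The count was 11 with the 99th percentile or the second off-tissue list as the bound. The phosphatases Ptpn2, Ptpn1 and Ptpn6, which remove phosphate from JAKs or their receptors, were at 1538 ± 31.3, 1216 ± 11.2 and 574 ± 35.3. Socs6 was below the bound on set 1 alone, at 52.8 and 70.3. Among the feedback genes that STATs themselves switch on, chosen here after their values were seen, Socs3 read 440.2 and 432.7 (436 ± 5.30) and Cish read 226.8 and 255.8 (241 ± 20.5). Socs1, which blocks JAK activity directly, read 65.9 and 66.6 (66.2 ± 0.495), close to the bounds. The Socs2 reading came from 1 of 6 probe sets above the bound, at 58 and 78.2.

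Of the 17 inhibitor genes, 10 had a promoter window in this search, and the rest, Socs2 among them, were not searched. Of the 11 windows of these 10 genes, 2 held TTCNNNGAA, those of Cish and Socs3. These 2 are printed because they show what the STAT core looks like in a gene. Any inhibitor window on a chromosome left out of this search was not counted, while the share over all windows was taken without that step. The other 9 windows held none, and with 8.3% of all windows holding it, neither this count nor the 0 of 12 for the JAK and STAT genes sets the genes apart. Cish lies at chr9:107296409-107296708 (plus strand) and Socs3 at chr11:117969317-117969616 (minus strand), both from RefSeq on GRCm38.p6, 5′ to 3′, with matches to TTCNNNGAA in capitals.
Cish: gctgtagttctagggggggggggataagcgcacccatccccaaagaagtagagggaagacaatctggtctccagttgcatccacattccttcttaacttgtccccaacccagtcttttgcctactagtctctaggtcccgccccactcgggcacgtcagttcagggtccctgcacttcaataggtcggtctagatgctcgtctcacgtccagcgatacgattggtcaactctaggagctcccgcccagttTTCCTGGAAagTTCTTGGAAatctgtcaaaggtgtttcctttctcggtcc
Socs3: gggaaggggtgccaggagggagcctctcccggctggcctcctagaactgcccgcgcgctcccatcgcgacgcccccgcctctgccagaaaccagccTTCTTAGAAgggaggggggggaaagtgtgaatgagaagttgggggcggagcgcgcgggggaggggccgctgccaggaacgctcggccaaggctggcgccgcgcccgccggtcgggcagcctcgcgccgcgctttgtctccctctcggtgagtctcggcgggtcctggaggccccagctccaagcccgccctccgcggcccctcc
Cish holds TTCCTGGAA and TTCTTGGAA with 2 bases between them, and Socs3 holds TTCTTAGAA.

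Genes known as targets of single STATs were counted list by list. The lists are short, some genes stand in more than 1 list, and no difference between lists was tested. Of all named genes 46.5% were above the bound. For STAT5, 11 of 12 measured genes were, among them the cyclin gene Ccnd2 at 1724 ± 48.8, the granzyme gene Gzmb at 781 ± 37.5 and the survival gene Bcl2 at 651 ± 9.12, while the perforin gene Prf1 was not, at 45.8 ± 4.45. For STAT3, 8 of 9 were, led by the survival gene Mcl1 at 2353 ± 173, Rora at 619 ± 44.3 and Maf at 601 ± 90.2, but not Il21 at 48.4 ± 6.22. Many of these genes answer to other factors as well, and no link between a STAT and a target was tested.

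For STAT4, 5 of 7 measured targets were above the bound. They included the interleukin 18 receptor chains Il18r1 and Il18rap at 338 ± 2.76 and 230 ± 25.7 and Il12rb2, given with the receptors, but not Hlx or Ifng at 4.2 ± 1.41 and 25.6 ± 2.55. For STAT6, 3 of 8 were, the Th2 factor Gata3 at 281 ± 22.6, Il4ra and Nfil3 at 104 ± 21.9, whereas Ccr4, Ccr8 and Epas1 were at 34.8 ± 15.2, 38.4 ± 3.32 and 29.8 ± 9.55. This is 37.5% of the STAT6 list, beside 46.5% of all named genes, a gap of less than 1 gene in 8.

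Of the Stat2 partner and interferon-stimulated genes 5 of 11 were above the bound, 45.5% beside 46.5% of all named genes. The partner Irf9 read 445.2 on set 1 and 403.8 on set 2 (424.5 ± 29.3), whereas Bst2 and Ifit2, genes induced by interferon, were at 139.6 ± 19.5 and 108.5 ± 2.12. Ifit1, Ifit3 and Mx1, which type I interferon induces strongly, were below the bound at 35.4 ± 10.3, 32.9 ± 1.48 and 33.8 ± 4.45. The count was 2 with the 99th percentile and 3 with the second off-tissue list as the bound. Counting each gene of the 11 lists once, 59 of 101 measured genes (58.4%) were above the bound.

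**Figure D4:**
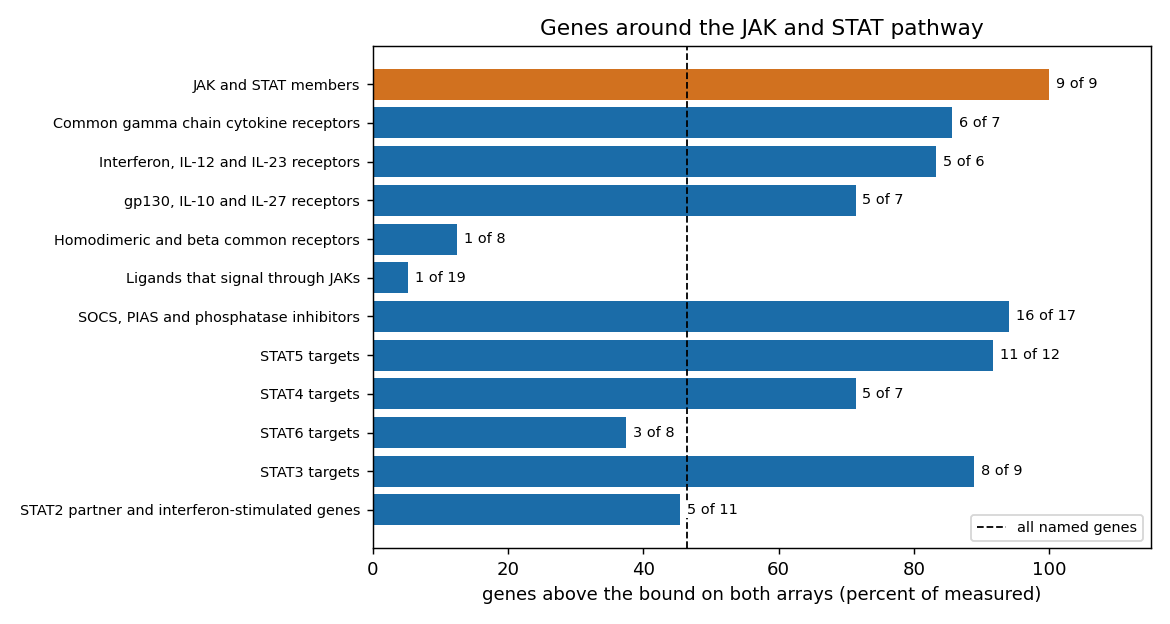
Percent of the measured genes of each list above the bound on both arrays, with the counts beside the bars, for the JAK and STAT genes (orange) and the 11 lists of pathway genes (blue); the dashed line is the 46.5% of all named genes. The ligands and the homodimeric and beta common receptors stand lowest, with 1 of 19 and 1 of 8.

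JAK and STAT genes are expressed by many blood cells, and markers of other cell types were read in the same RNA. All 9 measured T cell markers were above the bound, with Cd3d, Thy1 and Cd3g at 4671 ± 299, 3449 ± 139 and 2843 ± 11.4. Cd8a was close to the bounds at 65.6 and 67.3, with 1 of its 5 probe sets above them. Cd4 was at 1119 ± 95.2 and Cd8b1 at 213 ± 31.7, these 3 being named with their values known. Of 7 measured B cell markers 6 were, with summed readings of 3601 on set 1 and 3146 on set 2, of which the immunoglobulin gene Ighm gave 2580.6 and 2163. Ms4a1 (CD20) and Cd22 were at 377 ± 17.4 and 221 ± 10.04, the receptor chains Cd79b and Cd79a at 165 ± 1.202 and 108 ± 14.1, and the kinase gene Blk at 75.4 ± 16.7. Pax5, the factor that defines B cells, was just below the bound on both arrays at 53.9 ± 0.212. Of 8 macrophage and dendritic cell markers 1 was above it, Csf1r at 102 ± 63.2, with sums of 283 on set 1 and 430.2 on set 2, and Adgre1, C1qa and C1qb were not, at 58.1 ± 26.1, 2.4 ± 0.424 and 28.8 ± 0.495. Of 6 NK cell markers 2 were, Klrd1 at 1630 ± 75.1 and Klrk1 at 460 ± 15.6, with sums of 2077 and 2218, and Eomes, Klra1 and Klra7 were not, at 23.4 ± 2.40, 0.8 ± 0.141 and 20.1 ± 6.72. The brightest probe set of no marker read 0 on either array. The part of other cells in the JAK and STAT readings was not tested.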

How the data were processed

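Per the labels, polyadenylated RNA labelled with biotin was measured on 2 arrays of 1 group. The deposited values are intensity values, 1 per probe set and array, on a linear scale as read from the values. The sources used here do not say how the authors corrected background, summarised probes and scaled the arrays. The medians were 36.4 (set 1) and 37.9 (set 2) and the maxima 8860.2 and 8718.8. Having only 2 arrays limits the precision.

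Of 45101 probe sets, 64 controls were left out. The platform annotation of GEO gave 34958 probe sets 1 symbol, 932 several and 9211 none. Entrez identifiers matched 34754 of the 34958 to RefSeq (GRCm38.p6), changing 0 symbols. The bound used 36 of 45 listed off-tissue genes, with 52 probe sets. A gene passed when at least 1 probe set exceeded the bound on both arrays, and its brightest probe set by mean gave its level. Intensities under 1 were set to 1 before log2.

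The genes, the lists and the tests were chosen with earlier results of these data known. Every JAK and STAT gene is named. Of each list the 3 brightest genes above the bound and up to 3 below it, in alphabetical order, are named. The measured genes of the receptor lists are all given where described, and so are the measured B cell markers. Any other name, such as Socs1, Socs2, Socs3, Cish and the off-tissue genes, was picked with its value known. Alternatives changed the bound, the arrays, the scaling, the floor, the probe sets and the gene level. The functions were tested on simulated data. Python 3.11.15, numpy 2.4.6, pandas 2.3.3 and matplotlib 3.10.9 were used.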

Additional observations from a re-analysis of the deposited data

How the results depend on the processing

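Under the alternative bounds, single arrays, quantile normalization, omission of probe sets ending in _x_at or _s_at, and the median over probe sets as the gene level, 8 or 9 of the 9 JAK and STAT genes were above the bound. No JAK or STAT probe set ends in _x_at or _s_at, so that omission could reach their calls only through the bound. The count of 8 came with the 99th percentile and with the second off-tissue list, and Stat2 was the gene lost in both. The probe sets above the bound numbered 15 to 19, and the pathway genes 47 to 65. The median level of the 9 genes was 545, and 437 with the median over probe sets as the level, where Jak1 was at 825 and Stat3 at 287, since their dim probe sets then enter the level. The SD of the difference between arrays was 0.18, and 0.16 with 16 added before log2, which shrinks differences of dim probe sets. On single arrays the median level was 527 to 562 and the median log2 spread between probe sets of a gene 0.99 to 1.08. With no centring 8 in place of 7 probe sets were higher on set 2. Apart from this shift, direction was compared only for the median log2 difference between the arrays over the JAK and STAT probe sets. That median kept its sign in every alternative run for it. No paired analysis was possible because there is 1 group. Signal over background limits the calls of Stat2 and of the 2 dim Stat3 probe sets, and with 1 group no test between groups could be made.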

Other observations

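The platform annotation assigns 2 further probe sets to Jak3 together with a second symbol, and they were left out of all counts. Probe set 1423021_s_at read 562.3 on set 1 and 548.5 on set 2 (555 ± 9.76), and 1427092_at read 2.9 and 7.1 (5 ± 2.97). No gene is assigned to either reading here.

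Some genes of other organs, named here with their values known, exceeded the bound. In the first list 2 of 36 measured genes exceeded it, Cela1 at 93.8 ± 21.1 and Kap at 128.5 ± 1.56. The bound is the 95th percentile of that list's own probe sets, so some of them exceed it by construction. In the second list 8 of 45 did, with Mbp at 493.5 ± 31.3 and Tg at 432 ± 18.7 as the highest and the other 6 no higher than Pomc at 113 ± 7.42. For Mbp 2 of 8 probe sets exceeded the bound.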
